A study of Mus musculus with 32 samples.

Results

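N6-methyladenosine (m6A) was mapped in chromatin-associated RNA (caRNA) and in polyadenylated RNA (mRNA) of the same kind of cell, control mouse embryonic stem cells of the Mettl14 line, and the maps were set against each other. The members were 4 of the 16 peak lists of the series, 2 replicates of caRNA and 2 of mRNA. Peaks of the 4 lists were merged by strand where they overlapped by at least 1 bp, which gave 49279 regions. A region with a peak in both caRNA lists and in neither mRNA list was called chromatin-only, a region with the reverse pattern mRNA-only, and a region with a peak in all 4 lists shared. Of all regions, 22549 were chromatin-only (45.8%), 1480 were mRNA-only (3%) and 11194 were shared (22.7%). The other 14056 (28.5%) had a peak in another combination of lists, of which 5530 and 4229 were seen in a single caRNA list and 552 and 880 in a single mRNA list.

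The series holds 32 samples, an immunoprecipitate and an input for each of 16 RNA preparations from cells labelled CKO or Control of a Mettl14 and a Mettl3 line. All groups were embryonic stem cells of strain C57BL/6 in medium with LIF at 1000 U/ml, CHIR99021 at 3 µM, an inhibitor of the kinase GSK3, and PD0325901 at 1 µM, an inhibitor of the kinase MEK. The control cells used here carry the label Control with no further account of their genotype, of an inducing agent or of clones. For caRNA, RNA of the chromatin fraction was depleted of ribosomal RNA, and for mRNA it was selected for poly(A) tails. The labels do not name the fraction from which the poly(A) RNA came, and cell fraction and RNA selection cannot be told apart in any comparison given here.

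In mammals m6A is placed on nascent RNA in the nucleus by a complex whose core is METTL3, the catalytic subunit, and METTL14, which helps to hold the RNA. The mark lies mostly in a short sequence with GGAC as its commonest core, and in mature mRNA it is known to gather in long internal exons and around the stop codon. Chromatin-associated RNA holds nascent precursors with their introns, promoter and enhancer transcripts and retained noncoding RNA. In MeRIP-seq, RNA fragments bound by an m6A antibody are sequenced and enriched stretches are called as peaks. A peak gives a stretch of some length, not the modified base, and its presence measures neither the level of m6A nor the level of the RNA. A summit is the position of highest signal in a peak.

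Some regions of each class reached the starts of genes. Promoter windows of 250 bases before to 50 after an annotated start were taken from RefSeq (GRCm38.p6, the assembly of mm10), 32851 in all. Windows overlapped on the gene's own strand numbered 959 for chromatin-only, 22 for mRNA-only and 453 for shared regions. Per 100 regions of the class these were 4.25, 1.49 and 4.05 windows, so the larger count of chromatin-only windows went with the larger class. All summits of the region lay inside the window in 155, 8 and 42 of these cases. The letters GGAC, read on the gene's strand, occurred in 65.6% of all windows and, read on the opposite strand, in 66.1%. They occurred in 77.6% of the windows overlapped by chromatin-only regions, in 77.3% of those overlapped by mRNA-only regions and in 70.9% of those overlapped by shared regions. In the windows that held all summits of the region the order differed, with 81.3% for chromatin-only, 75% of 8 windows for mRNA-only and 90.5% of 42 windows for shared regions. Copies of these letters cannot overlap each other, no other motif was searched, and base composition was not matched between the sets of windows. The windows below hold all summits of strong regions of each class, ranked by the weakest of the lists required, and are printed in lower case with GGAC in capitals. They are shown because they are the sequences under the peaks at gene starts. The first 4 are chromatin-only, Efcab14 is shared and Zbtb49 is mRNA-only.
Cenpo (chr12:4233916-4234215, minus strand): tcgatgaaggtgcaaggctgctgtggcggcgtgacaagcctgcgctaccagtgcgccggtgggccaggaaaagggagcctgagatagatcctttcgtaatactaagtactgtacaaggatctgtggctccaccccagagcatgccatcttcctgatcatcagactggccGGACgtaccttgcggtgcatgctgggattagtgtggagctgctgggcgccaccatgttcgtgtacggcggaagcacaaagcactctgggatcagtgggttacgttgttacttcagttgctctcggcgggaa
Ptpn4 (chr1:119837022-119837321, minus strand): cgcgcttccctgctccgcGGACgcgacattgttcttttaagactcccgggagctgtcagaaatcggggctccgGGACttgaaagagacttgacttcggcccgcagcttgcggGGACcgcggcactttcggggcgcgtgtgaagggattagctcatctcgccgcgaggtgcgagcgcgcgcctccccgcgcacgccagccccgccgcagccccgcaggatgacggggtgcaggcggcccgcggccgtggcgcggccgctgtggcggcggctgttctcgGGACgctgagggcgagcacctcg
Zfp458 (chr13:67268945-67269244, minus strand): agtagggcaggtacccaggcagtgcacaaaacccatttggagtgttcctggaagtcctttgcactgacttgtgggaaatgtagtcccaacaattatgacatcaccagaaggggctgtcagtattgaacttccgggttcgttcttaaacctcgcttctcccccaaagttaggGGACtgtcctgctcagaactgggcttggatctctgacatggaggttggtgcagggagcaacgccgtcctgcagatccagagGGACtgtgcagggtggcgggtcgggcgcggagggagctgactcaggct
Myo9a (chr9:59750924-59751223, plus strand): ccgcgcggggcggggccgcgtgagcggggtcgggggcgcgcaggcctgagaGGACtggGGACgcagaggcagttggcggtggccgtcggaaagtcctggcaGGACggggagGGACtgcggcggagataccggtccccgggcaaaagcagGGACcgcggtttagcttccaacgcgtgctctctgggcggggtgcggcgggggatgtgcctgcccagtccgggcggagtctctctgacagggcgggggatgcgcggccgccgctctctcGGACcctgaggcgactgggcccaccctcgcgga
Efcab14 (chr4:115737823-115738122, plus strand): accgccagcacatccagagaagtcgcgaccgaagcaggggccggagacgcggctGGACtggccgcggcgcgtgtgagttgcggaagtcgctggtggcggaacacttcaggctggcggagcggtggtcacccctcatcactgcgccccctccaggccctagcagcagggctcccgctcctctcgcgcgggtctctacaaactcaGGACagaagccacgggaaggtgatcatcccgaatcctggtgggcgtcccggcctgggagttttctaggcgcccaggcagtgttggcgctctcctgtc
Zbtb49 (chr5:38220405-38220704, minus strand): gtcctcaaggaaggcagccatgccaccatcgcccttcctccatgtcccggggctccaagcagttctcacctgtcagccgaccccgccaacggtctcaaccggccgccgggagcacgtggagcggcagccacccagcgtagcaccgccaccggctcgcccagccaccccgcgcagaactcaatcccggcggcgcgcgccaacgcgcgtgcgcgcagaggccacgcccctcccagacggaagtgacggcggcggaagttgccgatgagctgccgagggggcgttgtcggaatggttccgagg

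Cenpo, which encodes a kinetochore protein, had fold enrichments of 12.9 and 11.8 in the 2 caRNA lists, with summits 96 and 85 bases before the start and 1 GGAC 81 bases before it. Fold enrichment is the authors' ratio of immunoprecipitate over background for a peak and was used within lists. Myo9a, an unconventional myosin gene, had 6 GGAC in the window, folds of 12.2 and 10.9, and both summits 22 bases after the start. Zfp458, a zinc finger gene, had folds of 12.2 and 10.99 with summits 23 and 16 bases after the start. The shared window of Efcab14 had folds of 19.1 and 18.3 in caRNA against 9.73 and 11.6 in mRNA, and its 4 summits lay between 157 and 177 bases before the start. The window of Zbtb49 held no GGAC, and its mRNA summits, with folds of 7.52 and 7.10, lay 180 bases before the start. A match or its absence describes these letters in these windows and locates no modified base.

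MicroRNA hairpins are cut from longer primary transcripts in the nucleus. On their own strand they were overlapped by 28 chromatin-only regions (0.124% of the class), by 0 of 1480 mRNA-only regions and by 23 shared regions (0.205%). Of the regions with another combination of lists, 7 overlapped a hairpin (0.0498%). The chromatin-only share was below the shared one, the counts are small, and the shares were not tested. Chromatin-only and shared regions held 29 and 24 of the 1005 hairpins in the RefSeq table. The mature sequences below belong to 4 of the chromatin-only hairpins, chosen after their values were seen. They are shown 5′ to 3′ with the seed, bases 2 to 8, in capitals, and their 4 seeds differ.
miR-345-5p: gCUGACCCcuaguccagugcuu
miR-191-5p: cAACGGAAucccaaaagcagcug
miR-134-5p: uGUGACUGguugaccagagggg
miR-668-3p: uGUCACUCggcucggcccacuacc

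The region over Mir345 (chr12:108835966-108837832, plus strand) had caRNA folds of 17.95 and 19.2, and that over Mir191 (chr9:108567550-108568675, plus strand) 14.5 and 14.6. Mir134 and Mir668 lie in 1 region on chromosome 12 with folds of 8.08 and 7.04. The last pair belongs to the imprinted Dlk1-Dio3 cluster. The annotated body of Mirg, a noncoding RNA gene of that cluster, starts past this region and holds neither hairpin. Mirg had a caRNA peak in replicate 2 alone (4.34) and none in mRNA.

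The caRNA lists held 42514 and 41315 peaks and the mRNA lists 16537 and 17738, with spike-in peaks removed. Read depth is unknown, so a missing peak may reflect depth. Merged pairwise, the caRNA replicates shared 77.0% of their regions and the mRNA replicates 78.0%, against 27.5% to 29.6% for the 4 pairs of 1 caRNA and 1 mRNA list. The share in both lists is capped where 1 list is much longer, as in the pairs of caRNA and mRNA. These values therefore cannot show how much closer replicates were, and pairwise shares with lists of equal length were not computed. Stem cell markers were marked in both RNA types, with a peak in 9 and 9 of 10 genes in caRNA and in 7 and 8 of 10 in mRNA. Fibroblast markers, which feeder cells would carry, had peaks in 4 and 4 of 10 genes in caRNA and in 3 and 3 in mRNA. Of 3 endoderm markers Gata6 had a peak in both mRNA lists and none in caRNA, and of 3 neural markers none had a peak in any list. Of the deleted genes of the series, Mettl14 was shared, with folds of 3.82 and 2.82 in caRNA and 1.69 and 3.07 in mRNA, and Mettl3 was chromatin-only (5.82 and 5.83). The best Mettl14 peak of mRNA replicate 2 (chr3:123380714-123380864) lay apart from those of the other lists.

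Class counts moved with the length of the lists. When the 10000 strongest peaks of each list were taken, by the authors' significance, chromatin-only regions came to 3288, mRNA-only regions to 2521 and shared regions to 4847. Genes were classed in the same way from summits in the body of that gene alone. Of 11938 genes with a summit in at least 1 list, 3099 were chromatin-only (26%), 345 mRNA-only (2.89%) and 6559 shared (54.9%). With the 10000 strongest peaks the counts were 864, 1181 and 3595, so that mRNA-only genes then outnumbered chromatin-only genes. In the other 3 pairs of line and genotype chromatin-only regions also outnumbered mRNA-only regions, by 15724 against 3430 in Mettl14 CKO, 14456 against 2275 in Mettl3 Control and 17896 against 3438 in Mettl3 CKO cells.

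**Figure D1:**
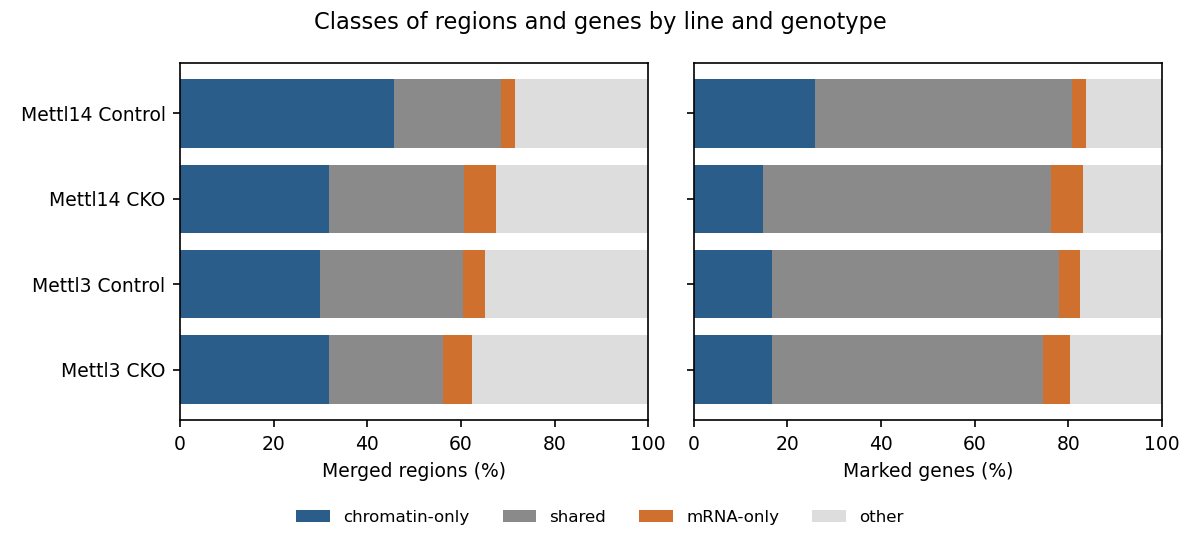
Share of merged regions (left, %) and of marked genes (right, %) in each class, for the 4 pairs of caRNA and mRNA groups, with 2 lists per group. The Mettl14 Control pair has the largest chromatin-only share of the 4, 45.8% of regions and 26% of genes. Its mRNA lists were also the shortest, with 16537 and 17738 peaks against 22165 to 23380 in the other pairs. The shares were not compared between pairs with lists of equal length.

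Summits of caRNA and mRNA lay at different places along genes. Position was taken for summits on the annotated strand of protein-coding genes, as a percentage of the gene body from start to end, with introns included. In caRNA 23.0% and 23.2% of these summits lay in the last 10% of the gene, against 39.8% and 38.6% in mRNA. The first 10% of the gene held 14.7% and 14.3% in caRNA, against 6.41% and 6.56% in mRNA. Both caRNA lists lay on the same side of both mRNA lists in each measure, and replicates lay closer together than the RNA types did. Means were 23.1% ± 0.175 in caRNA and 39.2% ± 0.800 in mRNA for the last 10%, and 14.5% ± 0.306 and 6.49% ± 0.105 for the first 10% (SD, n = 2 each).

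With 2 libraries against 2 no exact test can give p below 0.3333, so the difference between RNA types was tested over all 16 libraries, with labels exchanged within each of the 4 pairs of line and genotype. The share in the last 10% was lower in caRNA in 4 of 4 pairs, by 16.1 percentage points in these controls and with a mean difference of -13.6 points (exact permutation test, two-sided, adjusted p = 0.00185). The share in the first 10% was higher in caRNA in 4 of 4 pairs, by 8.04 points in these controls and 6.10 points on average (exact permutation test, adjusted p = 0.00185). The smallest p that this test can give is 0.00154 before adjustment over 6 measures. Within the genes marked in all 4 lists the pattern was nearly as large. There the last 10% held 24.9% and 25.1% of caRNA summits against 39.6% and 38.5% of mRNA summits, and the first 10% held 13.1% and 12.6% against 6.49% and 6.65% (exact permutation test over the 4 pairs, adjusted p = 0.00185 for each).

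Summits outside any annotated gene body made up 13.2% and 13.2% in caRNA and 6.06% and 6.30% in mRNA. The difference of 6.999 points in these controls exceeded that in the other pairs, which was 1.55 points in Mettl14 CKO, 1.31 in Mettl3 Control and 2.50 in Mettl3 CKO cells (mean 3.09, exact permutation test, adjusted p = 0.00185). Whether the pairs differ was not tested. Readthrough past gene ends and transcription away from promoters were looked at after the data were seen. Summits within 10 kb past a gene end on its strand made up 3.59% and 3.65% in caRNA against 1.51% and 1.57% in mRNA. Summits within 2 kb ahead of a start on the opposite strand made up 0.541% and 0.545% in caRNA against 0.284% and 0.299% in mRNA. Each was higher in caRNA in 4 of 4 pairs (exact permutation test, adjusted p = 0.00231 over 6 added measures). Both are shares of all summits and count only summits outside gene bodies, whose share was itself higher in caRNA. Their shares among the summits outside gene bodies were not tested.

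**Figure D2:**
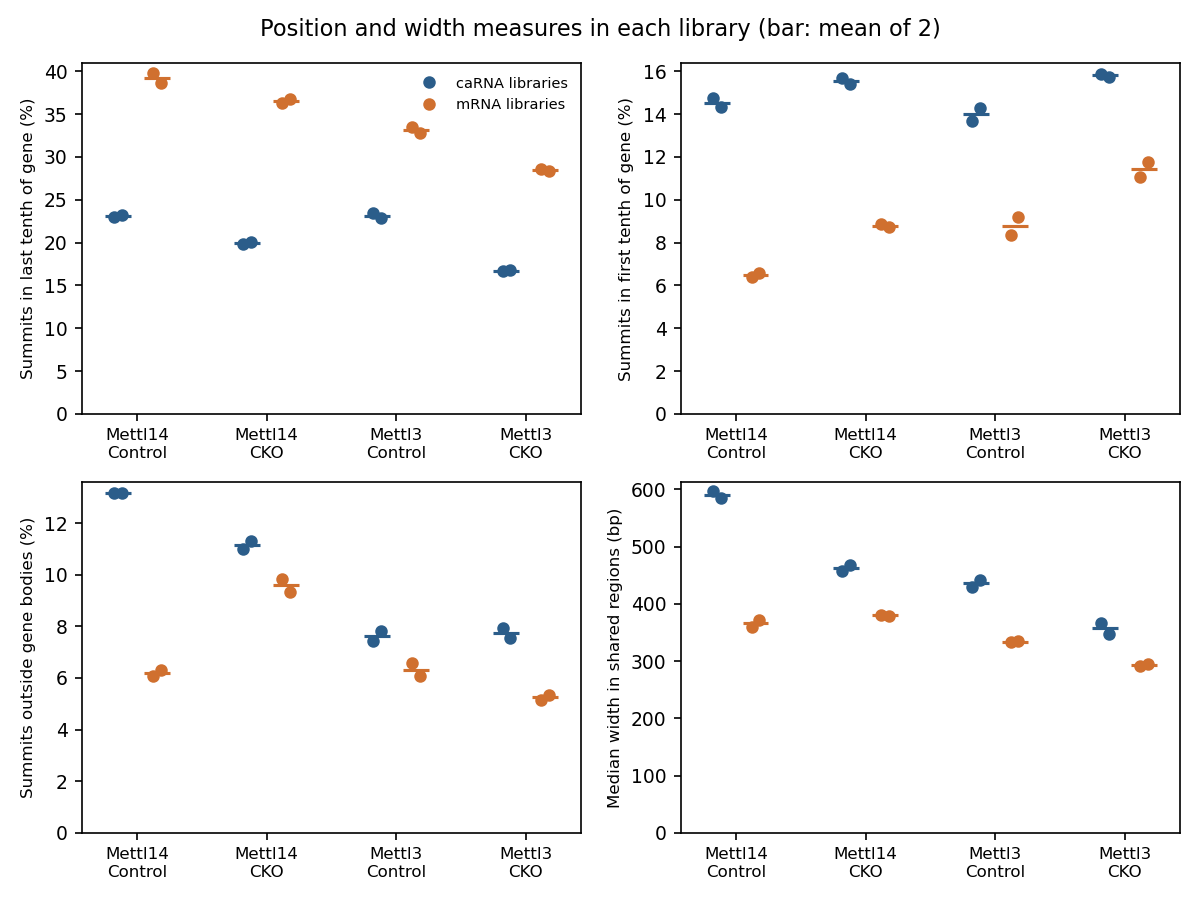
Share of summits in the last 10% and the first 10% of genes and outside gene bodies (%), and median peak width within shared regions (bp), for each of the 16 libraries by line and genotype, with a point per library and a bar at the mean of 2. In each of the 4 pairs both caRNA libraries lie below both mRNA libraries for the last 10% and above them in the other panels.

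The classes separated these patterns. Chromatin-only regions had 12.5% and 12.6% of their caRNA summits in the last 10% of the gene and 19.1% and 19.2% in the first 10%, and each 10% bin between held 7.99% to 8.82%. Shared regions had 41.2% and 40.7% of caRNA summits and 39.7% and 39.5% of mRNA summits in the last 10%. The first 10% of the gene held 6.98% and 6.87% of the caRNA summits and 6.56% and 6.59% of the mRNA summits of shared regions. Peaks of both RNA types overlap in a shared region by definition, so close profiles there follow from the rule and are no separate result. The flat profile with a high start was that of the regions seen in caRNA alone. mRNA-only regions had 42.1% and 42.1% in the last 10% and 3.38% and 3.38% in the first. The classes were cut from the same lists, so these shares describe them and were not tested.

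**Figure D3:**
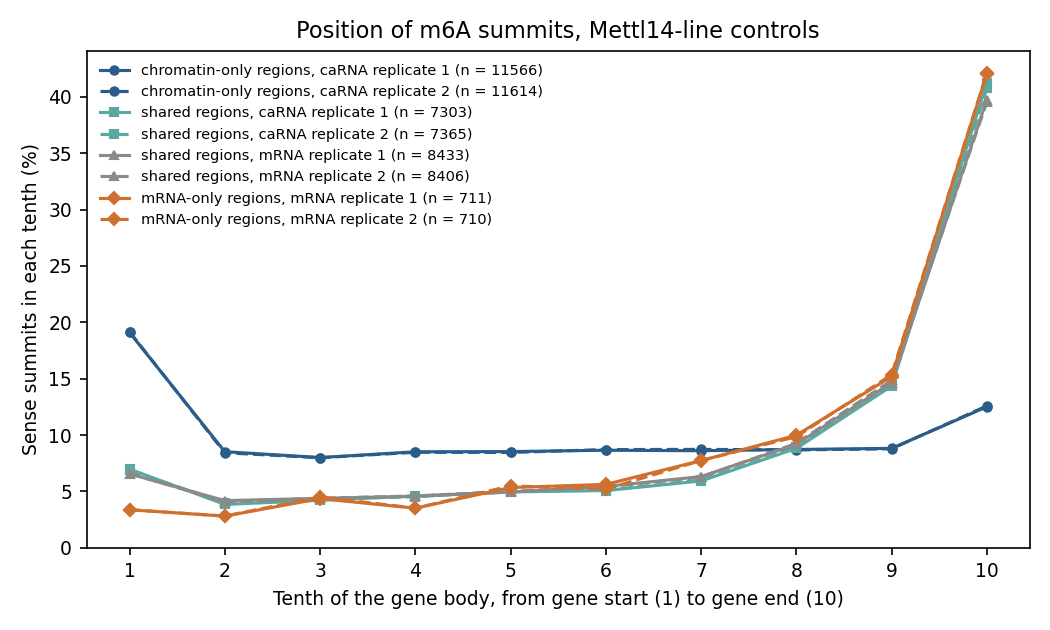
Share of sense summits (%) in each 10% of protein-coding gene bodies, from start to end, for chromatin-only, shared and mRNA-only regions, with a solid line for replicate 1 and a dashed line for replicate 2. Chromatin-only summits lie at 19.1% and 19.2% in the first 10%, while shared and mRNA-only summits lie between 39.5% and 42.1% in the last.

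Distances from the gene end differed between the classes in the same way. The median summit of chromatin-only regions lay 24.2 and 24.3 kb before the gene end, in genes with a median of 58.1 and 58.2 kb. The median was 2.82 and 2.82 kb for mRNA-only regions and 3.49 and 3.52 kb for shared regions in caRNA. Outside gene bodies lay 16.1% and 16.1% of chromatin-only summits, 4.79% and 4.92% of mRNA-only summits and 6.09% and 6.02% of shared caRNA summits. Peak strength moved with class, since the median fold of chromatin-only peaks stood at the 46.1 and 44.4 percentile of the caRNA lists and that of shared peaks at the 78.9 and 77.5 percentile. Bins of 25 percentiles of caRNA peak strength were looked at as well. In them chromatin-only summits had between 7.37% and 14.3% in the last 10%, and shared summits between 37.8% and 46.6%. Shared regions need an mRNA peak by definition, and mRNA summits gathered at gene ends. These values therefore describe the classes at each caRNA strength and test no part of strength in the difference.

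Many genes carried both kinds of region. Of 4687 protein-coding genes with a shared region on their strand, 2657 (56.7%) had a chromatin-only region as well. With or without a shared region, 5079 protein-coding genes held at least 1 chromatin-only region on their strand. Genes of any type with a summit on their strand numbered 8682. Whether the 56.7% differs from the share over all genes was not tested. Of the 6704 chromatin-only regions in these genes, 59.0% lay upstream of every shared region of the gene, 24.6% between shared regions and 16.3% downstream of all. Shared regions gathered near gene ends, which leaves more of the gene upstream of them. The share that this placing alone would give was not computed, so the 59.0% is no separate result. Genes marked in all 4 lists held 3.799 and 3.72 peaks on average in caRNA, against 2.05 and 2.15 in mRNA (higher in caRNA in 4 of 4 pairs, exact permutation test, adjusted p = 0.00231 over the added measures). The caRNA lists were longer, with 42514 and 41315 peaks against 16537 and 17738, and this measure was not tested with lists of equal length. Chromatin-only regions piled up in some long genes, with 87 genes holding at least 10 and 13 holding at least 20. Gucy1a2, a subunit of the nitric oxide receptor guanylate cyclase, spans 373 kb (chr9:3532349-3905791) and held 41 chromatin-only and 2 shared regions. Hs6st3, a heparan sulfate sulfotransferase gene of 732 kb, held 35 and 3. Tenm3, a teneurin adhesion receptor gene, held 27 and 3, and Gphn, which encodes the scaffold gephyrin, held 25 and 0.

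**Figure D4:**
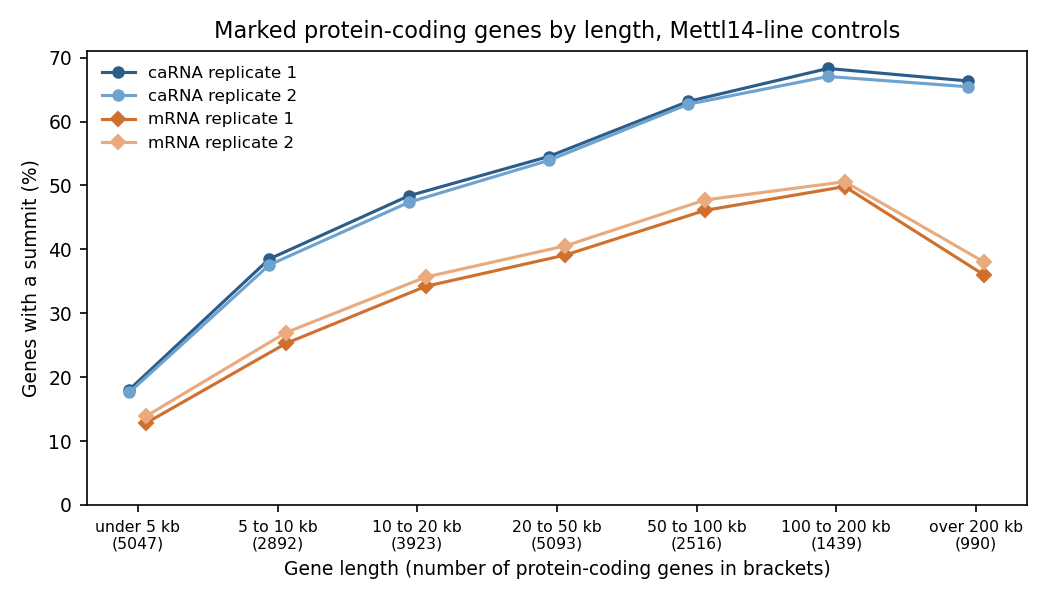
Share of protein-coding genes with at least 1 summit (%) by gene length, with a line for each of the 4 lists. Both caRNA lists lie above both mRNA lists at every length, and the shares for genes over 200 kb are 66.4% and 65.5% in caRNA and 36.0% and 38.0% in mRNA. The caRNA lists hold more peaks, and lists of equal length were not compared here.

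By length, genes over 200 kb had 66.4% and 65.5% marked in caRNA against 36.0% and 38.0% in mRNA, and genes under 5 kb 18.1% and 17.6% against 12.8% and 13.9%. Of marked protein-coding genes over 200 kb 35.2% were chromatin-only and 0.438% mRNA-only, and of those under 5 kb 25.2% and 7.99%. The caRNA lists were longer, and the shares by gene length were not taken with lists of equal length. Long noncoding RNA genes were chromatin-only in 360 of 747 marked genes (48.2%), mRNA-only in 23 and shared in 155. For protein-coding genes the shares were 24.0% chromatin-only, 2.76% mRNA-only and 58.2% shared.

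Width separated the classes further. Chromatin-only regions had a median width of 321 bp, mRNA-only regions 233 bp and shared regions 669 bp. At least 1 kb was spanned by 5.17% of chromatin-only regions, 0.541% of mRNA-only regions and 29.9% of shared regions. A merged region of 4 lists can only grow, so peaks were compared within shared regions as well. There the median caRNA peak was 597 and 584 bp wide, against 360 and 372 bp in mRNA, a difference of 224.5 bp in these controls. It was wider in caRNA in 4 of 4 pairs, by 118 bp on average (exact permutation test, adjusted p = 0.00231 over the added measures). The shared peaks of these controls differed in strength within their lists, with a median fold percentile of 78.9 and 77.5 in caRNA and 51.0 and 53.6 in mRNA. The width of peaks of equal strength was not tested. Over all peaks the medians were 310 and 310 bp in caRNA and 313 and 310 bp in mRNA, and the mean difference over the pairs was -11 bp (exact permutation test, adjusted p = 0.00463). That sign turned with the 10000 strongest peaks per list, where caRNA peaks were wider by 133.25 bp over the pairs.

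Most shared regions, 9096 of 11194, had 1 peak in each list. Both mRNA lists had at least 2 peaks in 1179 shared regions, and in 925 of these both caRNA lists had 1. The reverse held for 16 regions. Both caRNA lists covered more bases than both mRNA lists in 74.1% of shared regions, and both mRNA lists covered more in 9.90%. Summits fell close together. In the 9096 regions with 1 peak in each list the median distance between the caRNA and mRNA summit was 10 nt in each replicate, against 6 nt between caRNA replicates and 4 nt between mRNA replicates.

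Zfat, a zinc finger transcription factor gene, ranked first among shared genes by enrichment in the weakest list. It had folds of 23.4 and 23.5 in caRNA and 19.4 and 18.6 in mRNA. Its shared region spans 2465 bp (chr15:68178743-68181207, minus strand), covered over 1666 and 2439 bp in caRNA and over 310 and 317 bp in mRNA. Kank1, a regulator of actin, had folds of 26.7 and 28.8 in caRNA and 23.7 and 17.2 in mRNA, at 88.3% of the gene length in both. Its peaks were 2789 and 2796 bp wide in caRNA and 1753 and 1747 bp in mRNA (chr19:25409047-25411852, plus strand). Trps1, a GATA-type repressor, had 23.1 and 23.6 in caRNA and 16.9 and 16.9 in mRNA. Usp35, a deubiquitinase gene, had 33.5 and 27.2 in caRNA and 33.8 and 16.2 in mRNA, at 87.7% of the gene (chr7:97311550-97312430, minus strand). Pik3ca, which encodes a catalytic subunit of PI3 kinase, peaked at 95.2% of its gene in both RNA types, with folds of 24.7 and 25.6 in caRNA and 16.1 and 21.7 in mRNA. Cnnm3, of a family of magnesium transport proteins, peaked near its start, at 6.64% of the gene in caRNA replicate 1 and 6.63% in mRNA replicate 1, with 25.002 and 26.1 in caRNA and 15.4 and 19.9 in mRNA. Nyap1, an adaptor of PI3 kinase, and Elk4, an ETS transcription factor, completed the list, with peaks at 60.2% and 56.8% of their genes in caRNA replicate 1. All 8 were shared in each of the other 3 pairs too.

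Among chromatin-only genes, Sv2c, a synaptic vesicle glycoprotein gene, ranked first with folds of 25.4 and 24.4. Its peak lay 44.0 kb into a gene of 173 kb (chr13:96088237-96088958, minus strand), far from the gene end. Slc39a11, a zinc transporter gene of 405 kb, had 19.6 and 19.4 at 49.9% of its length (chr11:113447138-113447968). Ddx39a, an RNA helicase that acts in mRNA export, had 17.8 and 21.0, and Immp2l, a subunit of an inner mitochondrial membrane peptidase, 16.6 and 18.7 at 15.98% of a gene of 932 kb. Nr3c2, the mineralocorticoid receptor, had 15.7 and 16.4 at 3.03% of its gene, in its first stretch. Spon1, which encodes a matrix protein, had 18.6 and 16.4, Iffo1, an intermediate filament family gene, 16.6 and 16.2, and Gtf2h2, a subunit of the transcription factor TFIIH, 16.1 and 15.8. The peak of Gtf2h2 lay at 64.6% and 65.5% of its gene. No strand is given in the tables for Ddx39a, Spon1 and Iffo1, so their peaks have no position here, and the other 5 lay between 3.03% and 65.5%.

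As regions, the strongest chromatin-only stretches were led by Zfp942, a zinc finger gene (chr17:21946861-21950365, minus strand), with folds of 24.9 and 25.9 and widths of 3505 and 3454 bp. A region that lies in both Rerg, a RAS-like GTPase gene, and Gm38914 followed with 24.5 and 25.2. Sash1, an adaptor protein gene, held the next after Sv2c, with 28.4 and 22.2 and 41.9 kb before its gene end (chr10:8763445-8764550, minus strand). Of the 8 chromatin-only genes above, Slc39a11, Ddx39a, Immp2l and Nr3c2 were chromatin-only in Mettl3 Control cells as well, Spon1 and Gtf2h2 were shared there, and Sv2c had no peak. Iffo1 had another combination of lists there. In Mettl14 CKO cells Slc39a11, Ddx39a, Spon1 and Nr3c2 were chromatin-only, and Sv2c, Immp2l, Iffo1 and Gtf2h2 were shared.

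mRNA-only genes were led by Gata3, a transcription factor of T cells and trophoblast. It had 13.4 and 13.8 at 96.8% of its gene (chr2:9857935-9858195, minus strand). Pdk4, a kinase that inhibits pyruvate dehydrogenase, had 10.9 and 11.8 at 84.7%, and Tbx18, a T-box transcription factor, 11.8 and 9.89 at 91.3%. Capsl, a calcium-binding protein gene, had 9.54 and 9.69 at 85.4%, and Etfrf1, a regulator of the electron transfer flavoprotein, 9.64 and 9.50 at 67.7%. These 5 peaks were on the sense strand and most lay near the gene end. Mbp, which encodes myelin basic protein, had 10.4 and 12.8, and Npm1, a nucleolar chaperone, 10.1 and 9.95, and the tables used give no strand for these genes. In Mettl14 CKO cells Gata3 and Pdk4 were mRNA-only as well, Tbx18 was shared and Npm1 had no peak. Mbp, Etfrf1 and Capsl had another combination of lists there. In Mettl3 Control cells Npm1 was mRNA-only, Pdk4, Etfrf1 and Capsl were shared and Mbp was chromatin-only. Gata3 and Tbx18 had another combination there.

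The classes also differed in strand, which was not tested. Antisense summits, those opposite to the annotated gene, made up 13.5% and 13.5% of chromatin-only, 26.7% and 26.7% of mRNA-only and 5.30% and 5.32% of shared mRNA summits. Of the 4 strongest mRNA-only regions 3 were antisense, to Tsga10ip (chr19:5399605-5399846, plus strand, folds of 18.2 and 17.0), to Anp32b, a histone chaperone gene (15.6 and 14.1), and to Tsc22d1 (13.6 and 18.4). The other, in Gm5662, had 14.3 and 14.2 with no strand given for the gene. Such a peak is not shown to belong to the transcript of the named gene. With sense summits alone 228 genes were mRNA-only (2.63% of those marked) and 2138 chromatin-only (24.6%). A spike-in RNA added to each sample held peaks on both strands in all 4 lists, with folds of 2.90 and 2.74 in caRNA and 1.41 and 1.78 in mRNA on plus, and of 5.54 and 5.70 in caRNA and 5.67 and 5.25 in mRNA on minus. Their part in the antisense share was not tested.

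Gene lists were read against the shares over all marked genes, 26% chromatin-only, 2.89% mRNA-only and 54.9% shared. Several lists of housekeeping genes had many chromatin-only members. Replication-dependent histone genes, whose mature mRNAs end in a stem-loop without a poly(A) tail, were chromatin-only in 18 of 25 marked genes, mRNA-only in 0 and shared in 2. H2bc21 led with 4.74 and 4.37, followed by H2ac13 (3.39 and 3.26), H2bc8 (3.18 and 2.80, antisense) and H2bc23 (2.49 and 2.45). These folds are low, copies of these genes are nearly identical and may share reads, and with the 10000 strongest peaks 1 histone gene was marked and none classed chromatin-only. In each other pair of line and genotype H2bc8, H3c14, H2ac7 and H2ac4 were shared, while H2bc3 and H1f3 were chromatin-only. The rest of the chromatin-only histone genes varied between pairs, and the part of the missing poly(A) tail was not tested. Nuclear-encoded oxidative phosphorylation genes were chromatin-only in 34 of 55 and shared in 7, and Cox7b was mRNA-only with an antisense peak in both lists. With sense summits alone 26 of 44 were chromatin-only and 0 mRNA-only. Ndufa11 had 11.2 and 13.3, Uqcrb 9.17 and 8.64, Ndufa4l2 8.45 and 8.86 and Ndufb7 8.55 and 7.10. With the 10000 strongest peaks 12 of these genes were marked, 5 chromatin-only and 4 shared.

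Glycolytic enzyme genes were chromatin-only in 8 of 15 and shared in 5. Pfkl and Pfkp, isoforms of phosphofructokinase, had 8.43 and 5.64 and 5.36 and 5.89, Gpi1 had 3.98 and 3.68, antisense in replicate 2, and Aldoa 3.47 and 4.08. With the 10000 strongest peaks 8 of these genes were marked, 0 of them chromatin-only. Mitochondrially encoded genes were chromatin-only in 4 of 6, ND6 (3.72 and 4.46), ND4 (2.54 and 2.71), ND5 (2.56 and 2.40) and CYTB (2.11 and 2.20). These folds are low, no strand is given for these genes, and with the 10000 strongest peaks 1 of the list was marked, as chromatin-only. In Mettl3 Control cells ND6 and CYTB were shared, ND4 was mRNA-only and ND5 had another combination of lists. Ribosomal protein genes split, with 9 of 30 chromatin-only, 6 mRNA-only and 5 shared. The chromatin-only members had folds from 1.85 to 4.05, with Rpl29 (3.94 and 3.99) and Rpl7a (4.05 and 3.90) the highest. Of the mRNA-only members Rpl21 had 8.34 and 8.19, Rpl3 7.32 and 12.5 and Rps3a1 4.52 and 7.499. The peaks of Rps3a1, Rpl13 and Rpl6 were antisense, Rpl21 and Rpl3 have no strand in the tables, and with sense summits alone the list had 8 chromatin-only and 0 mRNA-only genes. The order turned with the 10000 strongest peaks, to 2 chromatin-only and 8 mRNA-only of 15 marked.

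Regulatory genes were mostly shared. Pluripotency genes were shared in 22 of 26 marked, chromatin-only in 3 and mRNA-only in 0. Lifr, the LIF receptor, had 13.8 and 14.6 in caRNA and 8.57 and 7.55 in mRNA. Gbx2, a homeobox gene of the naive state, had 19.1 and 18.04 in caRNA and 5.59 and 6.14 in mRNA. These were different peaks, on the sense strand at 82.0% and 81.9% of the gene in caRNA and antisense at 13.8% and 13.8% in mRNA. Klf4, a reprogramming factor gene, had 14.0 and 14.9 in caRNA and 6.49 and 7.11 in mRNA, on the antisense strand in both. The Klf4 peaks differed too, at 36.1% and 35.7% of the gene in caRNA and at 16.7% and 81.2% in mRNA. Pou5f1, which encodes OCT4, had 2.17 and 2.16 in caRNA and 5.59 and 6.26 in mRNA, with the mRNA peak antisense. Nanog had 4.36 and 5.81 in caRNA and 1.499 in mRNA replicate 2 alone. The chromatin-only members were Utf1, a chromatin-bound cofactor (9.64 and 8.45), Lin28a, which blocks let-7 processing (7.99 and 8.07), and Tdgf1, a Nodal co-receptor (2.60 and 2.99). The other shared members had folds from 5.07 to 18.2 in caRNA and from 2.42 to 11.6 in mRNA. The best mRNA peak of Klf2, L1td1, Fgf4, Zfp42, Esrrb and Nr0b1 in replicate 1 was antisense.

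Of the m6A machinery 18 of 24 marked genes were shared and 5 chromatin-only, with 0 mRNA-only. The chromatin-only genes were Mettl3 itself, Mettl5, an 18S ribosomal RNA methyltransferase (7.40 and 6.67), and the readers Fmr1 (4.57 and 4.54), Hnrnpc (1.76 and 1.69) and Igf2bp3 (1.68 and 2.28). The best peak of Mettl3 in caRNA lay at 27.0% of the gene on the sense strand in replicate 1 and at 7.20% on the antisense strand in replicate 2. Chromatin regulators were shared in 46 of 56 and chromatin-only in 5, which were Pcgf6 (8.64 and 8.18) and Pcgf1 (12.7 and 7.34) of Polycomb complexes, Ehmt2, an H3K9 methyltransferase (7.40 and 6.26), Smarcb1, a SWI/SNF subunit (6.41 and 5.83), and the DNA methyltransferase gene Dnmt1 (2.99 and 1.82). Zinc finger genes named Zfp or Zscan were shared in 305 of 351, against 30 chromatin-only, led by Zfp458 and Zscan26 (11.5 and 10.7), and 4 mRNA-only. Zscan4c (5.84 and 5.62) and Zscan4b (6.68 and 5.33), genes of a rare and transient state of stem cells, were among these last 4, with Zfp703 (8.98 and 10.1) and Zfp640 (5.97 and 4.12). SR splicing factor genes were shared in 9 of 13, with Srsf2 (antisense), Srsf4 and Srsf7 chromatin-only, and immediate early genes in 13 of 16, with Fosl1 chromatin-only (6.52 and 7.43). In these 5 lists mRNA-only members outnumbered chromatin-only ones when the 10000 strongest peaks were used. The counts were 1 chromatin-only and 2 mRNA-only for the m6A machinery, 3 and 6 for chromatin regulators, 16 and 35 for zinc finger genes, 0 and 2 for SR genes and 0 and 5 for immediate early genes, against 864 and 1181 over all genes.

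Developmental transcription factor genes went the other way, with 0 chromatin-only, 6 mRNA-only and 10 shared of 23 marked. Besides Gata3 the mRNA-only members were Neurog1, a proneural factor (9.37 and 6.96), Cdx2, a trophoblast factor (8.56 and 5.11), Gata6 and Sox7 of endoderm (5.43 and 5.10, and 4.65 and 4.53) and the homeobox gene Hoxd13 (4.08 and 5.18). The 4 with an annotated strand, Gata3, Neurog1, Cdx2 and Hoxd13, had their best mRNA peak on the sense strand. With the 10000 strongest peaks the list had again 0 chromatin-only and 6 mRNA-only genes, of 17 marked. In Mettl3 Control cells Cdx2, Gata6, Sox7 and Hoxd13 were mRNA-only as well. These genes mark cells that have left the stem cell state, Gata6 among the markers given above, and the part of such cells in the result was not tested. In bulk RNA fewer cells of a type and less RNA per cell cannot be told apart.

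**Figure D5:**
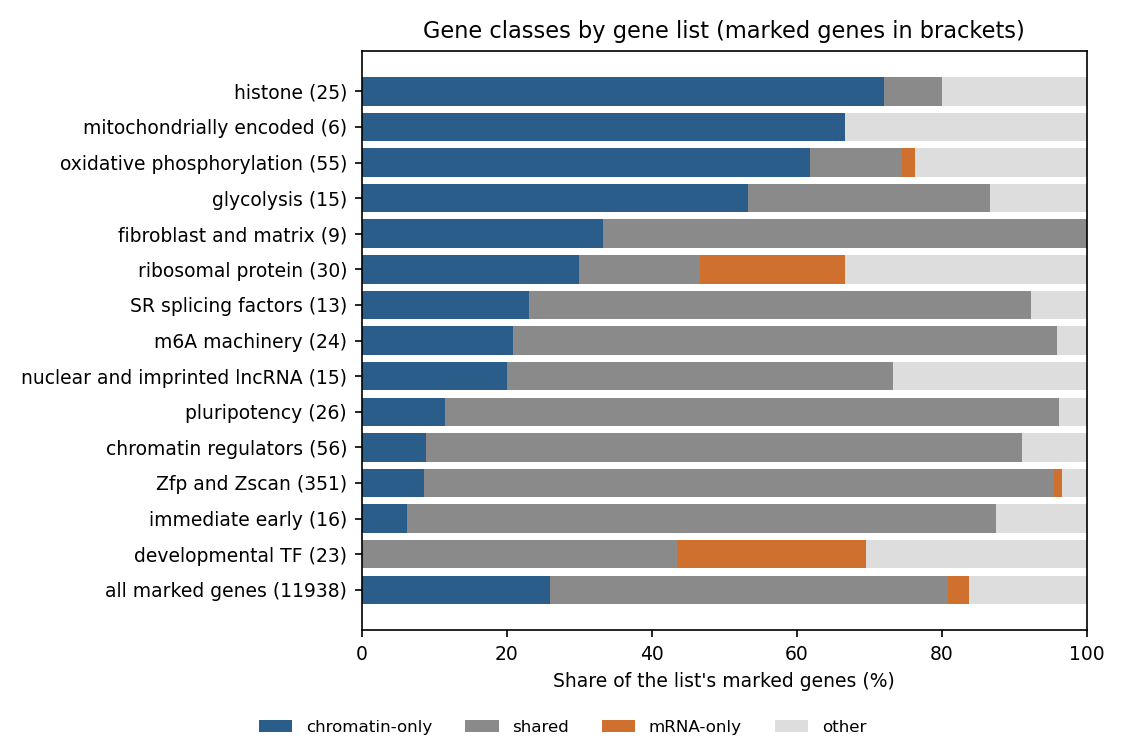
Share of each list's marked genes (%) that were chromatin-only, shared, mRNA-only or of another combination, for the 14 gene lists with at least 5 marked genes and for all marked genes, with the number of marked genes in brackets. Histone genes have the highest chromatin-only share, 18 of 25, and developmental transcription factor genes (TF) the highest mRNA-only share, 6 of 23.

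Nuclear and imprinted long noncoding RNAs were marked in 15 of 23 genes, 3 chromatin-only and 8 shared. The chromatin-only genes were Airn, the imprinted antisense transcript of Igf2r (5.20 and 5.80), Sox2ot, which spans Sox2 (3.97 and 4.23), and Firre, an X-linked nuclear RNA (3.92 and 5.39). Tug1 had the highest folds among the shared genes of the list, with 14.3 and 18.04 in caRNA and 14.0 and 12.4 in mRNA. These were different peaks, at 92.4% and 92.4% of the gene in caRNA and at 20.7% and 20.6% in mRNA. Malat1, an abundant nuclear speckle RNA, had 3.12 and 3.22 in caRNA and 2.28 and 3.24 in mRNA, and its best peak was antisense in both mRNA lists and in caRNA replicate 2 and sense in caRNA replicate 1. Tsix, the antisense partner of Xist, had 9.79 and 14.0 in caRNA and 6.30 and 5.26 in mRNA. Meg3 had 4.77 and 4.35 in caRNA and 4.15 and 3.49 in mRNA, from different peaks. Those of Meg3 lay at 9.82% and 9.85% of the gene in caRNA and at 66.4% and 66.6% in mRNA. Neat1, the scaffold of paraspeckles, had 2.45 and 2.64 in caRNA and 2.03 in mRNA replicate 2 alone, and Pvt1 5.89 and 6.96 in caRNA and 3.45 in mRNA replicate 1 alone. Host genes of small nucleolar RNAs were marked in 4 of 18, with Snhg17 chromatin-only (2.25 and 3.27) and 1 shared, and none of 11 structural RNA genes had a peak in any list. Fibroblast and matrix genes had 3 of 9 chromatin-only, Vim (4.35 and 3.94, antisense), Col6a1 (3.58 and 3.24) and Col1a1 (4.25 and 2.80), and 6 shared.

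The classes were carried to the other libraries to see how far they repeat. Of shared regions of the Mettl14 controls, 87.9% were shared again in Mettl14 CKO cells, 81.8% in Mettl3 Control cells and 62.8% in Mettl3 CKO cells. Of chromatin-only regions 45.7%, 29.5% and 22.1% were chromatin-only again in the same order, and 19.7%, 38.5% and 49.1% had no peak in any list of that pair. Of mRNA-only regions 47.8%, 14.6% and 16.8% were mRNA-only again, and in Mettl3 Control cells 19.3% were shared. The caRNA lists of Mettl3 Control cells marked 52.1% and 55.3% of the chromatin-only regions, and the mRNA lists 16.9% and 17.7%. Thus the shared class repeated in most regions in all 3 other pairs, whereas mRNA-only and chromatin-only regions repeated in 14.6% to 47.8% of cases.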

How the data were processed

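Peak lists of 4 immunoprecipitation libraries, 2 of caRNA and 2 of mRNA from Mettl14-line controls, were compared, and the 12 lists of the other groups were used for tests and repeats. The input samples were not used. Each library came with its own peak list, deposited by strand, and replicates were not pooled, per the labels. The lists give a fold enrichment per peak, the authors' ratio of immunoprecipitate over background. They also give significance as −log10 of p and of q from the authors' peak caller, with a lowest −log10 q of 2.00. The deposited summit offset is a position in bases and has no normalization. The submitters' processing notes name the mm10 build, CASAVA, Trimmomatic 0.38, HISAT2 2.1.0 and SAMtools 1.9, without roles, and the peak caller is not given in the sources used here. Read depth is unknown, so no counting intervals are given. Separate cultures are not stated for replicates, so p-values measure a spread between libraries that may be technical, and no batch is named.

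Peaks of spike-in RNA were removed and the rest merged by strand (at least 1 bp of overlap), with Python 3.11.15, pandas 2.3.3, NumPy 2.4.6 and SciPy 1.17.1. Genes came from RefSeq (GRCm38.p6, 49997 genes). A summit was assigned to a gene where it lay in the body of that gene alone. Position used 17492 of 21900 protein-coding genes, those with a strand in the tables. Exons, introns and UTRs were not used here. Each measure was tested over 16 libraries with an exact permutation within 4 pairs of line and genotype, and p-values were adjusted by Benjamini-Hochberg over 6 planned and, separately, over 6 added measures. The classification was tested on simulated data. Alternatives were the 10000 strongest peaks per list, a −log10 q of at least 5, summits within 100 nt as the overlap, the first and last 5% of genes, each library left out and a replicate block. Sense summits alone and the strand of the peak in place of the annotated strand were chosen after seeing the data. Named genes were the first 8, and named regions the first 4, of each class by the lowest fold percentile among the required lists, without predicted genes and pseudogenes for the genes. For each gene list the first 4 chromatin-only or mRNA-only members were named, with Mettl3, Mettl14, pluripotency genes and nuclear long noncoding RNAs, and names beyond these, among them the genes with many regions, were chosen after their values were seen. A gene that this rule would name is not reported here. Members and the 16 gene lists were chosen with earlier results of these data known.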

Additional observations from a re-analysis of the deposited data

Results flagged for a closer look

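The antisense share of summits differed between caRNA and mRNA in opposite directions in 2 pairs. In Mettl14 controls it was 11.4% and 11.4% in caRNA against 8.19% and 8.90% in mRNA, a difference of 2.85 percentage points. In Mettl14 CKO cells it was 8.76% and 8.71% in caRNA against 10.1% and 9.73% in mRNA, a difference of -1.17 points. Both libraries of each RNA type lay on the same side in each pair, and the difference between the pairs was not tested. Over the 4 pairs the share was higher in caRNA in 3, by 0.992 points on average, which did not pass (exact permutation test, adjusted p = 0.0778).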

How the results depend on the processing

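The position measures, the share outside genes and both measures within genes marked in all 4 lists kept their direction and stayed past the threshold in every alternative run. Exchanging labels within pairs of equal replicate number, the replicate block, gave adjusted p = 0.009375 for each of these 5 and 0.015625 for peak width (exact permutation test) and changed no call. The labels do not say that equal numbers share a culture. With the 10000 strongest peaks per list the mean difference in peak width reversed to 133.25 bp, and the counts moved to 3288 chromatin-only, 2521 mRNA-only and 4847 shared regions and to 864, 1181 and 3595 genes. With summits within 100 nt as the overlap mRNA-only regions came to 3543, and with sense summits alone mRNA-only genes to 228. With 1 library left out, chromatin-only regions ranged from 23169 to 28615, mRNA-only regions from 1733 to 2383, the highest without mRNA replicate 1, and shared regions from 11534 to 12592. Genes then ranged from 3313 to 3590, from 405 to 477 and from 6619 to 7014. Depth, unknown here, limits what a missing peak means.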
